A study of Mus musculus with 6 samples.

Results

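Of 31 known target genes of the transcription factor p53, 21 were higher and 1 was lower in kidney proximal tubules of mice given aristolochic acid. The genes were taken by symbol from general knowledge of p53, with earlier results of these data known. The set leaves out CDK inhibitors, the BCL2 family, TNF receptors, repair genes and the feedback regulators of p53. It still holds 9 genes of death and survival signalling, Apaf1 among them. The deposited table of 32544 genes held 30 of the 31; the remaining one, Trp53cor1, had no row under its symbol and is not analysed here. The filter on low values was passed by 28 of them, and Cd80 and Ano3 did not pass it.

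Libraries for mRNA were made from microdissected S2/S3 stretches of the proximal tubule of C57Bl/6 mice. Both groups are described as control mice, with no allele or transgene named and no age given. The AA group (3 libraries) received 1 injection of aristolochic acid I (AAI) and the DMSO group (3 libraries) 1 injection of dimethyl sulfoxide, a solvent; the labels state 3 mg/kg for both, and kidneys were taken 24 h later. Tubules of a kidney were pooled before RNA extraction. The labels do not tie libraries to animals, so p-values measure the spread between these libraries only.

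Aristolochic acid I, a kidney toxin of Aristolochia plants, forms covalent adducts with DNA after its reduction in cells. DNA damage stabilises the p53 protein, which binds DNA as a tetramer at response elements made of a pair of similar decamers and raises transcription nearby. Beyond arrest and death, its targets restrain AKT and mTORC1 signalling, supply deoxynucleotides, adjust redox and lipid metabolism, and bind the mitotic spindle or the ribosome.

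Levels are given as CPM, reads of a gene per 1000000 reads of the library. Library totals ran from 13304877 to 31136251 reads. Fold changes come from limma on log2(CPM + 1), with Benjamini-Hochberg adjustment over 14311 tested genes; called genes are those with adjusted p under 0.05. A log2 change below is this log2 fold change of AA over DMSO. The added 1 makes fold changes of low genes too small. Among all tested genes 22.3% were called higher and 8.66% lower, and their median log2 change was 0.21. In an analysis of bulk tubules, more cells of one kind and more RNA per cell cannot be told apart. A test with a term that sets DMSO replicates 1 and 2 apart from the other libraries, a grouping taken from an earlier analysis of these data, was run as well; it rests on DMSO replicate 3. Proximal tubule identity was clear in every library: the summed level of 8 defining markers was 14290 to 19210 CPM in DMSO and 7570 to 9391 CPM in AA, and 4 of the 8 were called lower.

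Promoter sequence of 25 of the 31 genes was found by symbol in RefSeq (GRCm38.p6, the same assembly as the mm10 build of the data), from 250 bases before to 50 bases after each annotated start site. An exact match to the consensus decamer of the p53 response element, which equals its own reverse complement, so that a search of 1 strand covers both, was present for 7 of the 25 genes (28.0%). The share was 8.60% of 10414 tested genes with a promoter in the table and 29.4% of 34 other p53 targets. The matches are printed 5′ to 3′ on the strand of the gene, with the decamer in capitals, because they can be set beside the changes that follow. Windows of 30 bases are given where the match lies near or after a start site, and longer ones for Ckap2, Rps27l and Sesn1.
Gtse1: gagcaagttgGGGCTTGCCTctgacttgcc
Aen: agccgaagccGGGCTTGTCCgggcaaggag
Ei24: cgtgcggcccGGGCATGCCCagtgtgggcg
Abhd4: cgacccggcaGGGCTTGTTTactatggctg
Ckap2: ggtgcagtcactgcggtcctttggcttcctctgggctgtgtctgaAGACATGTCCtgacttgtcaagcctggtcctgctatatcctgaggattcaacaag
Rps27l: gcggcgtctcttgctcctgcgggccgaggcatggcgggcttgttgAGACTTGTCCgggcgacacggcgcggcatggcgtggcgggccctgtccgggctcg
Sesn1: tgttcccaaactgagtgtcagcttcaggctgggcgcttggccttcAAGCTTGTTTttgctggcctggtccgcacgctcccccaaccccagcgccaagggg

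The capitals lie at chr15:85859955-85859964 for Gtse1, chr7:78895937-78895946 for Aen, chr9:36797335-36797344 for Ei24, chr14:54259284-54259293 for Abhd4, chr8:22186013-22186022 for Ckap2, chr9:66946306-66946315 for Rps27l and chr10:41887266-41887275 for Sesn1. In the GENCODE M21 annotation the matches of Gtse1, Aen and Ei24 fall in an annotated untranslated region and the others do not. Both Rps27l matches, the printed one and another at chr9:66946203-66946212, precede an alternative RefSeq start site and lie inside the GENCODE gene. The Abhd4 and Sesn1 matches also lie at start sites inside their GENCODE genes. These span chr14:54254188-54270637 for Abhd4 and chr10:41809935-41908424 for Sesn1, both on the plus strand. Directly beside the exact decamer, with no gap, lay another decamer with 1 mismatch to the consensus in Gtse1 and in the printed Rps27l match, and one with 2 mismatches in Ckap2; this search was added after the single matches were seen. Such a direct pair with at most 2 mismatches in the neighbour occurred in those 3 of the 25 genes (12.0%), in 5.88% of the other p53 targets, namely Cdkn1a and Ccng1, and in 0.519% of tested genes. Of the 7 genes with an exact decamer, 6 were called higher and Sesn1 was not. Among all 25 genes with a promoter sequence, 18 were called higher. Whether the decamer goes with the change was not tested. A match describes the letters of this window only.

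Of the 28 tested genes, 21 were called higher (75.0%, against 22.3% of all tested genes) and 1 lower (against 8.66%). Their median log2 change was 1.39, or 1.18 above the median of all genes. At least a doubling on that scale was called for 17 of them, against 8.93% of all tested genes. Every AA library lay above every DMSO library for 23 of the 28 (against 33.4% of all tested genes), and below for 1 (against 13.0%). Gtse1, Ckap2 and Zfp365 reached 1 CPM in AA libraries only and so had to differ in order to be tested. In a fit restricted to genes at 1 CPM or more in all DMSO libraries, 18 of 25 were higher and 1 was lower, while 22.2% of all genes in that fit were called higher. With library scalings that bring the median of all genes close to 0, 18 or 19 were called higher.

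**Figure D1:**
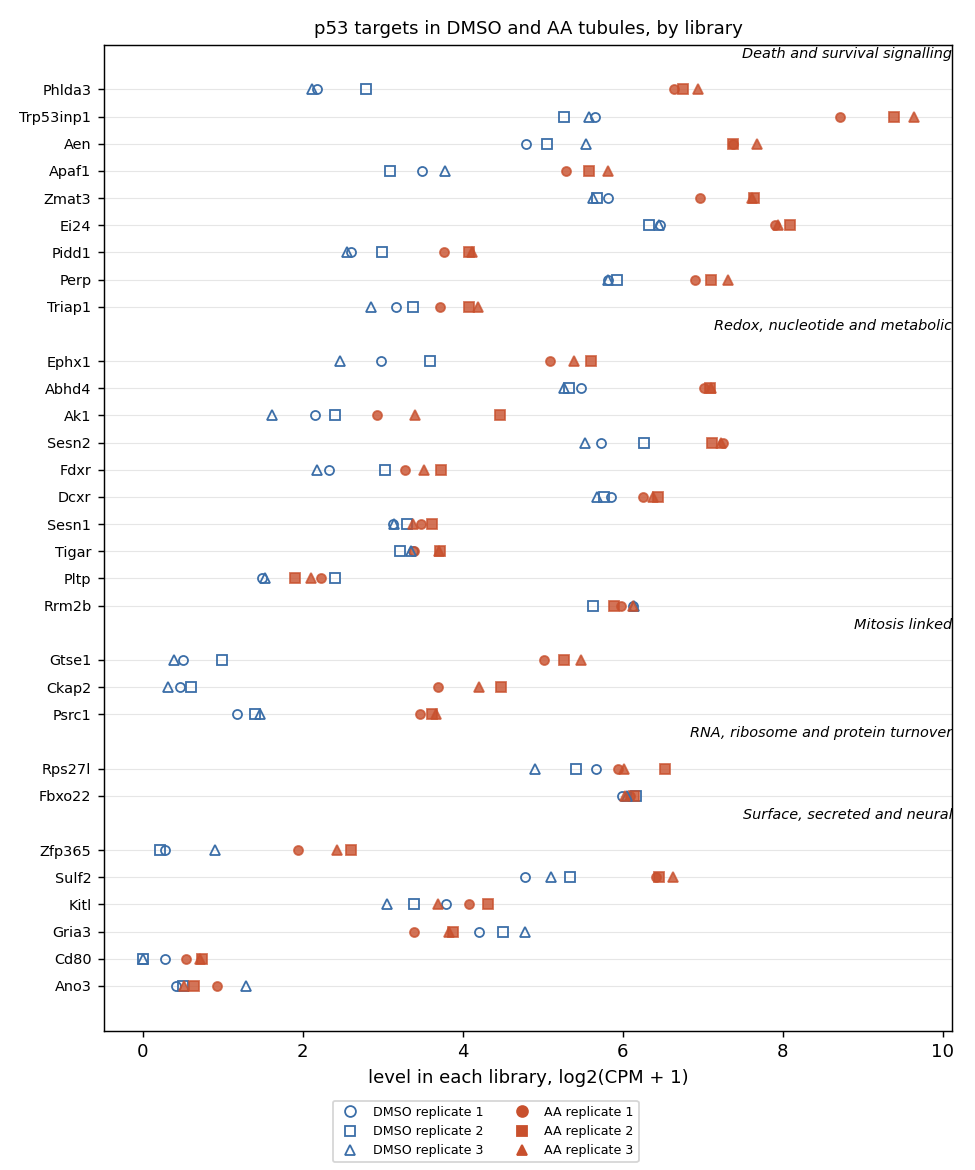
Levels of the 30 p53 targets with a row in the table, as log2(CPM + 1) in each library, grouped by role; open blue symbols are DMSO, filled red symbols are AA, and the symbol shape gives the replicate. The AA symbols lie to the right of every DMSO symbol for Phlda3, Gtse1, Ckap2 and Trp53inp1 with the widest gaps, while Rrm2b, Fbxo22, Pltp, Kitl and Ano3 overlap.

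All 9 genes of death and survival signalling were higher in AA (against 22.3% of all tested genes), with log2 fold changes from 0.87 to 4.41. Phlda3, which encodes a pleckstrin-homology protein that competes with AKT for membrane lipids, had 3.52, 5.94 and 3.32 CPM in DMSO replicates 1 to 3 and 98.9, 106 and 121 CPM in AA replicates 1 to 3. The lowest AA library was 16.7-fold above the highest DMSO library. Its log2 change was 4.41 (SE 0.21, 95% interval 3.96 to 4.87, limma adjusted p = 8.87e-07). Phlda3 lies at chr1:135766119-135769136 on the plus strand and shares no stretch of 31 bases with transcripts of other genes in GENCODE M21.

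Trp53inp1, which encodes a p53-induced nuclear protein that acts in autophagy and in the phosphorylation of p53, had 49.2, 37.5 and 46.6 CPM in DMSO and 420, 669 and 794 CPM in AA. All AA libraries were at least 8.54-fold above the highest DMSO library, and AA replicate 1 was the lowest of them. The log2 change was 3.75 (SE 0.21, adjusted p = 2.08e-06). The gene lies at chr4:11156431-11174379 on the plus strand.

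Aen, an apoptosis-enhancing nuclease, rose from 26.7, 32.1 and 45.4 CPM in DMSO to 166, 165 and 203 CPM in AA, a log2 change of 2.35 (SE 0.19). Apaf1, the scaffold of the apoptosome that activates caspase 9, rose from 10.2, 7.48 and 12.7 CPM to 38.2, 46.9 and 55.3 CPM, a log2 change of 2.11 (SE 0.22, adjusted p = 8.86e-05). Neither gene showed overlap between the groups. Of the partners of Apaf1, Casp9 was called higher at 0.48 (SE 0.16, adjusted p = 0.0385), and Cycs, which encodes cytochrome c, had 0.09 (adjusted p = 0.663).

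Zmat3, an RNA-binding zinc finger protein that alters splicing, rose from 55.2, 50.04 and 48.5 CPM to 124, 198 and 194 CPM. Its fold change of mean CPM was 3.36. Ei24, a membrane protein of the endoplasmic reticulum with a role in autophagy, rose from 87.1, 79.0 and 86.5 CPM to 237, 272 and 245 CPM, and Perp, a tetraspan protein of desmosomes, from 55.5, 59.8 and 55.3 CPM to 119, 136 and 158 CPM. These 3 genes were well expressed in DMSO tubules and 2.43- to 3.36-fold higher in mean CPM in AA, with log2 fold changes of 1.70 (SE 0.18), 1.57 (SE 0.13) and 1.25 (SE 0.14).

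Pidd1, the scaffold of the complex that activates caspase 2, rose from 5.06, 6.97 and 4.89 CPM to 12.6, 15.9 and 16.4 CPM, a log2 change of 1.27 (SE 0.22, adjusted p = 0.00213). Its adaptor went the other way: Cradd fell by 1.00 on the log2 scale (SE 0.23, adjusted p = 0.00865), from 8.87, 13.9 and 10.3 CPM to 4.43, 5.05 and 5.24 CPM. Casp2 itself had 0.47 (SE 0.19, adjusted p = 0.0793). The 3 genes of this complex were therefore called higher, called lower and not called.

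Triap1, a small mitochondrial protein that carries lipid together with Prelid1 and counters apoptosis, had 7.95, 9.41 and 6.204 CPM in DMSO and 12.2, 15.8 and 17.3 CPM in AA. The change was small at 0.87 (SE 0.23, adjusted p = 0.0152), and it was no longer called without AA replicate 2 (adjusted p = 0.0592), without AA replicate 3 (0.0634), with library medians equalised (0.053), after quantile normalization (0.0648) and with no filter on low values (0.094). Prelid1 was at 0.00 (SE 0.13, adjusted p = 0.996).

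**Figure D2:**
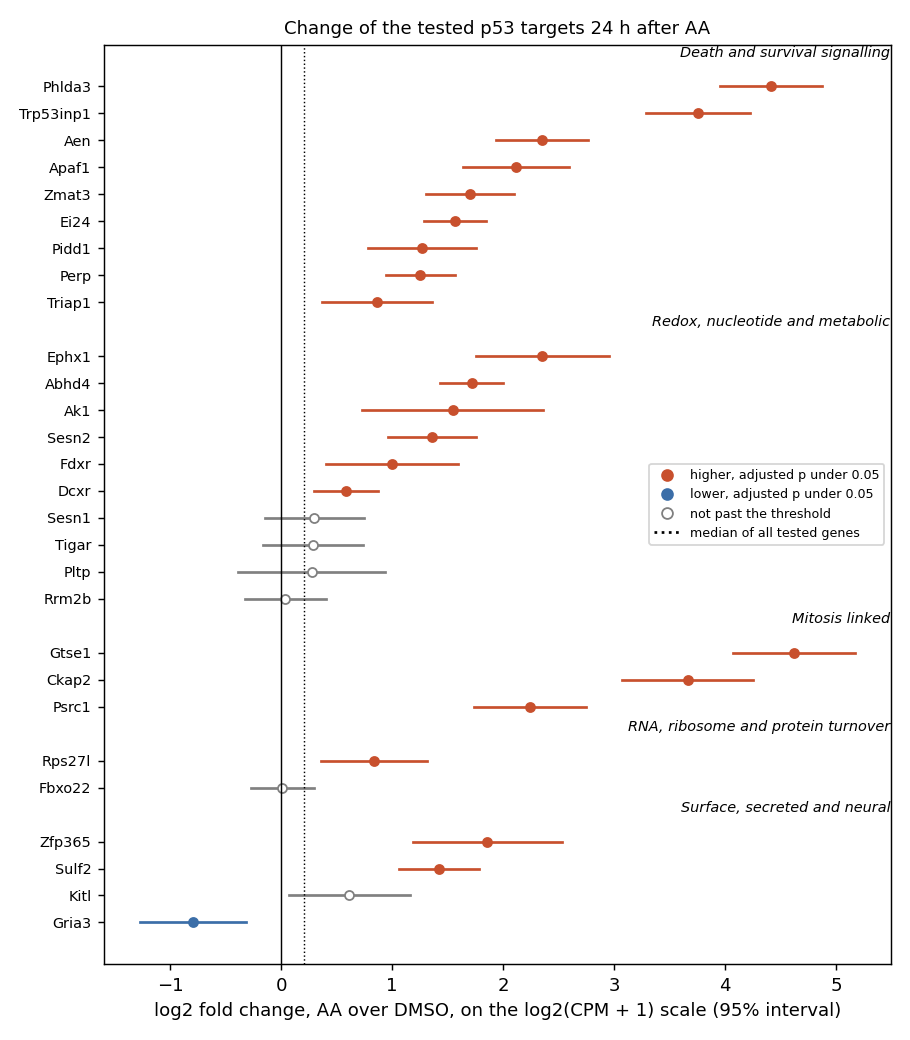
Log2 fold change of AA over DMSO with its 95% interval for the 28 tested genes, grouped by role; filled red is called higher, filled blue called lower, open grey not called, and the dotted line is the median of all tested genes at 0.21. All 9 death and survival genes and all 3 mitosis-linked genes lie to the right of it, and Gria3 at -0.79 lies to the left of 0.

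The mitosis-linked genes had some of the widest separations. Gtse1, which encodes a microtubule-binding protein of the G2 and S phases that also takes p53 out of the nucleus, had 10, 31 and 5 reads in DMSO replicates 1 to 3, or 0.418, 0.996 and 0.313 CPM, and 417, 667 and 605 reads in AA, or 31.3, 37.4 and 43.4 CPM. The mean CPM was 65.0-fold higher in AA, and the log2 fold change on the compressed scale was 4.62 (SE 0.25, 95% interval 4.07 to 5.17, limma adjusted p = 1.82e-06). Gtse1 lies at chr15:85859745-85876573 on the plus strand, without exon overlap with another gene.

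Ckap2, a spindle-associated microtubule protein, had 9, 16 and 4 reads in DMSO and 159, 379 and 242 reads in AA, or 0.377, 0.514 and 0.251 CPM against 12.0, 21.3 and 17.4 CPM. The fold change of mean CPM was 44.3 and the log2 fold change 3.66 (SE 0.27, adjusted p = 1.01e-05). Of its stretches of 31 bases, 10.2% also occur in transcripts of other genes, most with Gm7988 (3.80%), so a part of its level may be shared with them. Psrc1, a coiled-coil protein of the spindle, rose from 1.26, 1.64 and 1.75 CPM to 10.1, 11.3 and 11.7 CPM, a log2 change of 2.24 (SE 0.23, adjusted p = 8.86e-05). The lowest AA library was 23.3-fold above the highest DMSO library for Ckap2 and 5.74-fold for Psrc1.

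A list of other mitosis genes was read for comparison. Of 16 listed genes of mitosis, 13 were tested. Of these, 2 were called higher (15.4%, against 22.3% of all tested genes) and 1 lower (7.69%, against 8.66%), while 10 were not called. Their median log2 change was 0.23, against 0.21 over all tested genes. Aspm (1.59, SE 0.29) and Cdc20 (0.94, SE 0.33) were the higher ones and Cenpe (-1.59, SE 0.30) the lower one. Aspm and Cdc20 were among 5 of the 13 that were under 1 CPM in some DMSO library and passed the filter with the help of AA libraries. Refitted on genes at 1 CPM in all DMSO libraries, 0 of 8 were higher and 1 was lower. Of all genes in that fit, 22.2% were called higher. Mki67, the usual marker of dividing cells, named after its values were seen, had 1.63, 2.63 and 1.82 CPM in DMSO and 4.51, 1.63 and 2.15 CPM in AA, with overlapping groups. Ckap2l, a relative of Ckap2, had 0 to 4 reads in each library and was not tested.

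**Figure D3:**
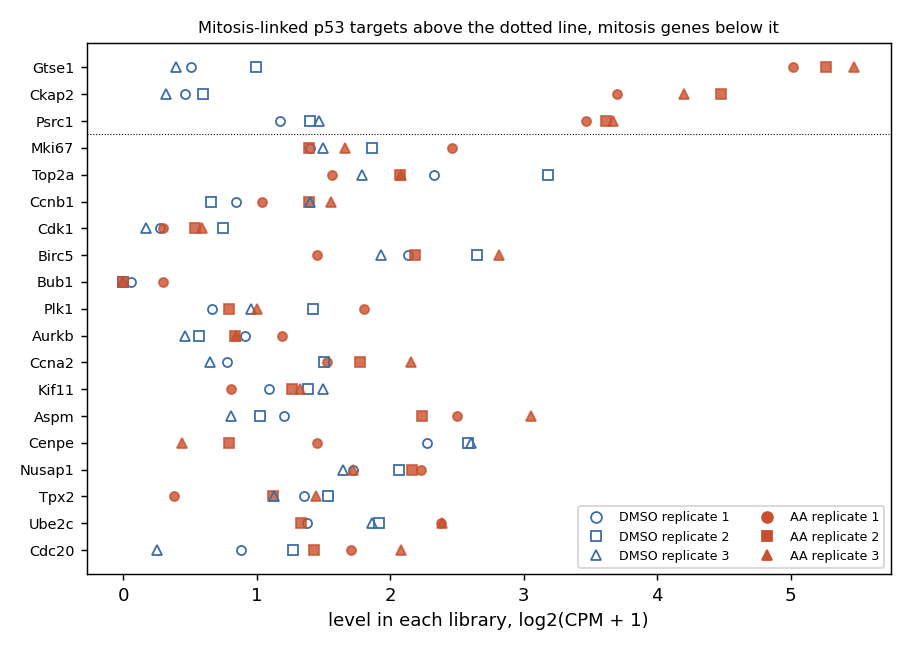
Level of each gene as log2(CPM + 1) in each library, for the 3 mitosis-linked p53 targets above the dotted line and 16 mitosis genes below it; open blue symbols are DMSO and filled red symbols AA. Gtse1, Ckap2 and Psrc1 have the widest gaps with red to the right of blue. Red also lies to the right of every blue symbol for Aspm, Ccna2 and Cdc20, with smaller gaps, whereas most mitosis genes overlap and Cenpe is reversed.

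Of 10 genes of redox, nucleotide and lipid metabolism, 6 were higher (60.0%, against 22.3% of all tested genes) and 4 were not called. The sestrins are stress-induced proteins that restrain mTORC1. Sesn2 had 52.1, 76.0 and 45.2 CPM in DMSO and 152, 138 and 149 CPM in AA, a log2 change of 1.36 (SE 0.18, adjusted p = 0.000431). Sesn1 had 7.74, 8.86 and 7.83 CPM in DMSO and 10.2, 11.2 and 9.41 CPM in AA, with 0.30 (SE 0.20, 95% interval -0.15 to 0.74, adjusted p = 0.28). The Sesn1 groups did not overlap, but the gap was small: its lowest AA library was 1.06-fold the highest DMSO library. Sesn3, which is not counted among the p53 targets here, was called higher at 0.56 (SE 0.17, adjusted p = 0.0254).

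Rrm2b, the p53-inducible small subunit of ribonucleotide reductase that supplies deoxynucleotides for repair, had 68.7, 48.3 and 69.2 CPM in DMSO and 62.2, 58.2 and 68.7 CPM in AA. The groups overlapped fully, and the log2 change was 0.04 (SE 0.17, adjusted p = 0.885). Its 95% interval, 0.797- to 1.32-fold, is the range of changes these libraries allow. Its sign turned with library medians equalised, at -0.22, and in other scalings. Rrm2, the small subunit of dividing cells, was low and called higher, at 0.837, 1.89 and 1.00 CPM in DMSO and 2.33, 4.27 and 3.23 CPM in AA (log2 change 0.93, SE 0.29, adjusted p = 0.0334). The large subunit Rrm1 had 0.01 (SE 0.20).

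Ephx1, the microsomal epoxide hydrolase, rose from 6.86, 11.1 and 4.51 CPM to 32.9, 47.8 and 41.0 CPM, a log2 change of 2.35 (SE 0.27, adjusted p = 0.000181). Abhd4, a hydrolase of lysophospholipids, was even within each group, at 43.5, 39.2 and 37.4 CPM in DMSO and 128, 136 and 137 CPM in AA (log2 change 1.71, SE 0.13). For both, the lowest AA library was above the highest DMSO library, 2.97-fold for Ephx1 and 2.95-fold for Abhd4. Dcxr, the dicarbonyl and xylulose reductase, rose less, from 56.9, 53.6 and 50.1 CPM to 75.2, 85.6 and 82.0 CPM (0.59, SE 0.13, adjusted p = 0.00759). The call for Dcxr was lost with library medians equalised (adjusted p = 0.095), with TMM factors (0.0571), in voom (0.0621) and with the term for the library sets (0.0522).

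Fdxr, the mitochondrial ferredoxin reductase, had 4.02, 7.16 and 3.51 CPM in DMSO and 8.72, 12.3 and 10.4 CPM in AA, a log2 change of 1.00 (SE 0.27, adjusted p = 0.0179). It was no longer called without DMSO replicate 1 (adjusted p = 0.0565), without AA replicate 2 (0.0762) or without AA replicate 3 (0.0507), after quantile normalization (0.069) and with no filter (0.141). Its electron acceptor Fdx1 had 0.08 (SE 0.16, adjusted p = 0.728). Tigar, a phosphatase that lowers flux through glycolysis, had 9.42, 8.32 and 9.21 CPM in DMSO and 9.47, 12.1 and 12.1 CPM in AA, with 0.29 (SE 0.20, 95% interval -0.16 to 0.73, adjusted p = 0.306).

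Ak1, the cytosolic adenylate kinase, had 3.43, 4.30 and 2.07 CPM in DMSO and 6.61, 21.2 and 9.62 CPM in AA, a log2 change of 1.55 (SE 0.37, adjusted p = 0.0105). AA replicate 2 stood highest. The summed level of 9 markers of the distal nephron and collecting duct was also highest in that library, at 1423 CPM. It was 365 CPM in AA replicate 1, 799 CPM in AA replicate 3 and 241 to 537 CPM in DMSO. None of the 9 markers was at 0, and 3 were called higher (33.3%, against 22.3% of all tested genes). Their part in the Ak1 result was not tested. As a check on single libraries, Ak1 remained called without AA replicate 2 (log2 change 1.11, adjusted p = 0.0402). With no filter it was not (adjusted p = 0.173). Pltp, the phospholipid transfer protein of lipoproteins, had 1.80, 4.30 and 1.88 CPM in DMSO and 3.68, 2.75 and 3.30 CPM in AA, and its 95% interval of the fold change ran from 0.764 to 1.91. Ctsa, on the other strand, overlaps 19.3% of Pltp exon sequence, and the strand setting of the counting is not given.

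Rps27l, a p53-induced relative of a small ribosomal subunit protein, had 49.6, 41.7 and 28.9 CPM in DMSO and 60.2, 91.6 and 63.9 CPM in AA, a log2 change of 0.83 (SE 0.22, adjusted p = 0.0146). Rps27 had 50.01, 36.3 and 40.7 CPM in DMSO and 42.4, 61.6 and 31.8 CPM in AA, or 0.06 (SE 0.22, adjusted p = 0.87). The groups overlapped for Rps27 and not for Rps27l. Of the stretches of 31 bases of Rps27l, 16.0% occur in transcripts of other genes, the highest share in the set, so a part of its level may be shared with them. Rps27l was no longer called without AA replicate 2 (adjusted p = 0.0679), with library medians equalised (0.0769), with TMM factors (0.0571), in voom (0.0617) and with no filter (0.188).

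Fbxo22, the substrate receptor of a ubiquitin ligase, had the smallest change in size among the 28 tested genes of the set. It had 62.8, 70.9 and 65.5 CPM in DMSO and 67.0, 69.2 and 64.3 CPM in AA. Its log2 change was 0.01 (SE 0.13, adjusted p = 0.962), and the 95% interval allowed 0.827- to 1.23-fold. With library medians equalised the value was -0.25. Nrg4 on the opposite strand overlaps 15.4% of its exon sequence. Trp53cor1, the long noncoding RNA that lies beside Cdkn1a, is annotated at chr17:29057430-29079179 on the minus strand, and no value is given for it.

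Among 6 genes of surface, secreted and neural proteins, 2 were higher, 1 was lower and 1 was not called, while 2 were below the filter. Sulf2, an extracellular enzyme that removes sulfate from heparan sulfate, rose from 26.5, 39.4 and 33.5 CPM to 84.6, 86.4 and 98.2 CPM, a log2 change of 1.42 (SE 0.16, adjusted p = 0.000176). Its relative Sulf1 stayed at 0.30 to 1.21 CPM and was not tested. Zfp365, a zinc finger protein linked to the centrosome and genome stability, rose from 5, 5 and 14 reads to 38, 90 and 61 reads, or from 0.209, 0.161 and 0.877 CPM to 2.86, 5.05 and 4.38 CPM (1.86, SE 0.30, adjusted p = 0.00146). Its adjusted p was 0.0538 with no filter on low values.

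Kitl, the ligand of the receptor Kit, had 12.9, 9.44 and 7.33 CPM in DMSO and 15.9, 18.9 and 11.9 CPM in AA. DMSO replicate 1 lay above AA replicate 3, and the log2 change of 0.61 (SE 0.25, adjusted p = 0.0813) was not called; leaving out DMSO replicate 1 gave 0.80 (adjusted p = 0.0455). Kit, at 0.502 to 1.45 CPM in DMSO and 2.25 to 3.31 CPM in AA, was called higher (0.89, SE 0.29, adjusted p = 0.0372). The summed level of 6 stromal markers was 70.7 to 96.4 CPM in DMSO and 132 to 153 CPM in AA, with 3 of the 6 called higher and none at 0. Endothelial markers, 6 in number, summed to 141.8 to 222.3 CPM in DMSO and 223.4 to 266.2 CPM in AA, with 2 called higher (33.3%). Podocyte markers, 5 in number, summed to 51.32 to 75.66 CPM in DMSO and 77.84 to 122.7 CPM in AA, with 1 called higher. The part of stromal cells, endothelial cells or podocytes in the results for Kitl, Kit and Sulf2 was not tested.

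Gria3, an AMPA-type glutamate receptor subunit, was the one gene called lower. It had 17.4, 21.6 and 26.3 CPM in DMSO and 9.47, 13.6 and 13.2 CPM in AA, a log2 change of -0.79 (SE 0.22, adjusted p = 0.0185). Every AA library lay below every DMSO library. It was no longer called without DMSO replicate 3 (adjusted p = 0.0626), without AA replicate 1 (0.0621), and with no filter (0.127). Of the other subunits, Gria1 and Gria2 were below the filter and Gria4 had 0.44 (SE 0.29, adjusted p = 0.268).

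Cd80, a costimulatory ligand of T cells, had 5, 0 and 0 reads in DMSO and 6, 12 and 9 reads in AA, too few to be tested. Without Csf1r, left out after its values were seen because it made up most of the sum, leukocyte markers summed to 17.2 to 22.8 CPM in DMSO and 57.4 to 72.1 CPM in AA; 4 of the 8 tested markers were called higher, and Cd3e was at 0 in some libraries. Their part in the Cd80 reads was not tested. Ano3, an anoctamin of neural tissue, had 8, 13 and 23 reads in DMSO and 12, 10 and 6 reads in AA, with overlapping CPM.

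Relatives and partners of the p53 targets were read from a separate list. Of 32 listed family members and partners, 27 were tested; 6 were called higher (22.2%) and 3 lower (11.1%), close to the shares of all tested genes, and the median log2 change was 0.06. Of the 6, Rrm2 and Kit passed the filter with the help of AA libraries, and the refit on genes at 1 CPM in all DMSO libraries gave 5 higher and 3 lower of 23. Phlda1 was the largest rise among them, from 1.80, 1.16 and 1.69 CPM to 14.8, 27.3 and 42.2 CPM (3.40, SE 0.33), whereas Phlda2 was at 14.6 to 19.0 CPM in DMSO and 12.7 to 13.9 CPM in AA (-0.30, adjusted p = 0.237). Trp53inp2 (-0.16), Ephx2 (-0.23) and Zmat1 (-0.13) were not called, and Ak4, a mitochondrial adenylate kinase, was lower (-1.27, SE 0.18). Abhd5 was higher at 1.15 (SE 0.15).

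The difference itself was tested for 17 pairs, as the log2 ratio in each library. These are all same-family pairs of the list with both genes tested, plus Sesn2 with Sesn1; leaving out partners of other families and adding that pair were decided after values were seen. An exact two-sided permutation test of 3 against 3 libraries cannot go below p = 0.1, and after adjustment over the 17 pairs the smallest value was 0.142, so no pair could pass 0.05. The changes of Phlda3 and Phlda2 differed by 4.71 on the log2 scale (exact p = 0.1), those of Trp53inp1 and Trp53inp2 by 3.91 (exact p = 0.1), those of Sesn2 and Sesn1 by 1.06 (exact p = 0.1) and those of Rps27l and Rps27 by 0.78 (exact p = 0.1). For Phlda3 and Phlda1 the ratios overlapped (difference 1.01, exact p = 0.2), as they did for Rrm2b and Rrm2 (-0.90, exact p = 0.2).

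**Figure D4:**
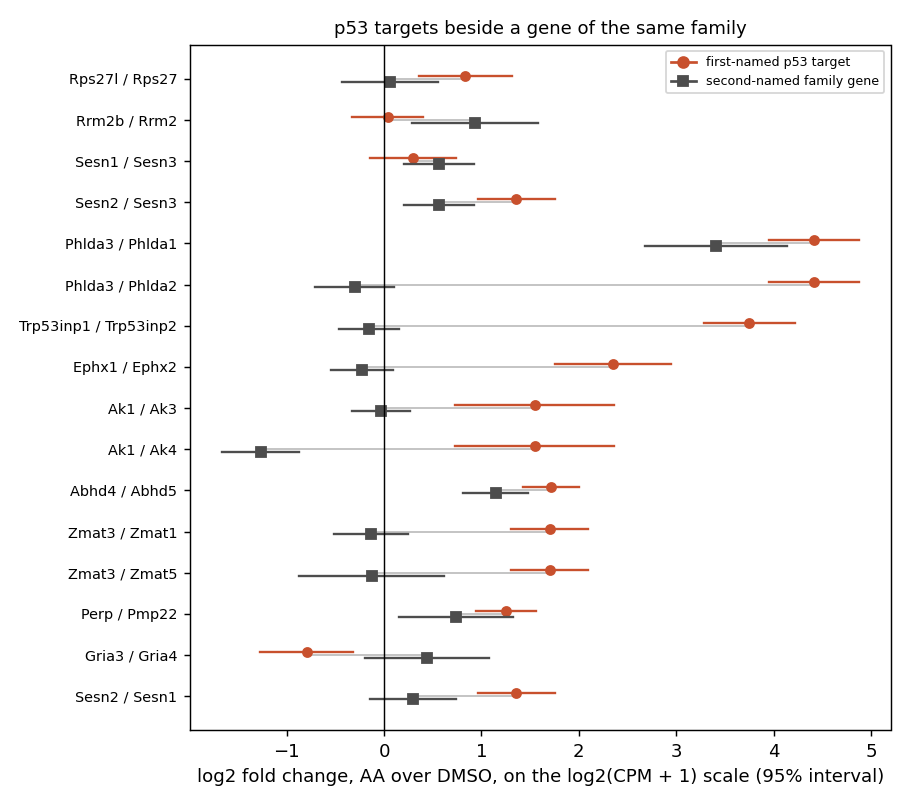
Log2 fold change of AA over DMSO with its 95% interval for 16 of the 17 pairs; red circles are the first-named p53 target and dark squares the second-named gene of its family. Phlda3, Trp53inp1, Ephx1, Ak1 and Zmat3 lie far to the right of Phlda2, Trp53inp2, Ephx2, Ak4 and Zmat1, while Rrm2b lies near 0 and to the left of Rrm2.

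A further list, also chosen with earlier results of these data known, held p53 targets left out of the set. Of 42 listed, 40 were tested. Of these, 30 were called higher (75.0%, against 22.3% of all tested genes) and 0 lower (against 8.66%). Their median log2 change was 1.77, against 1.39 in the set described here. Of the 40, 8 were under 1 CPM in some DMSO library and passed the filter with the help of AA libraries, Cdkn1a among them. All 8 are among the 30. In the refit on genes at 1 CPM in all DMSO libraries, 23 of 32 were higher and 0 lower, with a median of 1.52. Of all genes in that refit, 22.2% were called higher. Plk2 (4.12), Cdkn1a (6.64), Btg2 (4.23), Gdf15 (4.22), Ccng1 (2.61) and Slc19a2 (2.63) had the smallest adjusted p. The difference between the lists was not tested. Every one of the 40 had a log2 change above 0 in limma, the lowest being 0.0075 for Polh, named after its value was seen, so none was lower at an unadjusted p under 0.05.

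Among the 21 genes called higher, AA replicate 1 was the lowest AA library for 19 (90.5%), against 56.9% of all genes called higher, while the highest was AA replicate 3 for 11 (52.4%, against 41.6% of all genes called higher), AA replicate 2 for 9 (42.9%, against 43.8%) and AA replicate 1 for Sesn2. Against DMSO replicate 3 alone, the median log2 fold change of the 28 genes was 1.42.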

How the data were processed

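The authors deposited 1 table of log10(CPM + 1) values for 32544 genes in 6 libraries; undoing log base 10 and subtracting 1 gave columns that each summed to 1000000. Per the submitters' processing notes, bcl2fastq 2.19 and kallisto were used and the build was mm10; annotation and strand setting: not given in the sources used here. Values were turned back to CPM, and whole reads were recovered for 100% of values within 0.1 read. The filter kept genes that reached 1 CPM in 3 or more libraries, and these were tested on log2(CPM + 1) with limma 3.58.1 (R 4.3.3, variance trend, two-sided), checked on simulated data. The design had assumed log2 CPM. Of the symbols, 27 had been turned into dates.

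The genes, roles and lists were chosen with earlier results of these data known. All 31 genes are accounted for; of other p53 targets the 6 with the smallest adjusted p are named, and of the mitosis list those called. Family genes are named beside their p53 target. Promoters came from RefSeq (GRCm38.p6), gene models and transcripts from GENCODE M21. Alternatives covered scaling, filter, pseudocount, variance model, voom on recovered reads, a replicate block, library sets and leaving out each library. Chosen after values were seen were the refit on genes at 1 CPM in all DMSO libraries, the search for adjacent decamers, the checks of shared 31-base stretches and exon overlap, and the make-up of the family pairs, of which a smaller selection had been tried first. Of these pairs, 1 is counted but not reported here. Fits that leave out a library keep the gene set of all 6; a first version had filtered again.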

Additional observations from a re-analysis of the deposited data

How the results depend on the processing

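Of the 22 genes called, 15 kept their call in all 18 other settings, the refit below aside. Ak1 lost it with no filter only; Zfp365 lost it there and was not tested under the filter of 4 CPM. The other 5 were Dcxr, Gria3, Rps27l, Fdxr and Triap1, with values given above. The number called higher was 18 to 21 when 1 library was left out and 16 to 21 otherwise, and the number called lower was 0 or 1: it was 0 with no filter, and 0 to 1 when 1 library was left out. For other p53 targets, 26 to 30 and 20 to 30 were higher. The median log2 fold change was 1.13 with library medians equalised, 1.18 with TMM factors, 1.19 in voom and 1.10 with a pseudocount of 5 CPM, and 1.28 to 1.54 when 1 library was left out. Of all calls, 72.0% were higher in the values as deposited, 39.9% with equalised medians, 46.7% after quantile normalization, 47.2% with TMM factors and 48.3% in voom; the cause was not tested. Among all tested genes 3187 were higher and 1239 lower, against 1606 and 2422 with equalised medians, 1822 and 2077 after quantile normalization, 1885 and 2112 with TMM factors, 1910 and 2042 in voom, 1009 and 366 with no filter, 1058 and 423 with the library-set term, and 1842 and 803 without AA replicate 2.

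Of the 6 genes that were not called, 5 changed sign and Kitl did not. Rrm2b was -0.22 with equalised medians, -0.12 after quantile normalization, -0.18 with TMM factors and in voom, and -0.14 with the library-set term; leaving out 1 library gave -0.13 to 0.12. Fbxo22 was -0.25, -0.15, -0.21 and -0.21 in the same 4 scalings, and -0.029 to 0.057 when 1 library was left out. After quantile normalization Pltp was -0.064, Tigar -0.014 and Sesn1 -0.014. Kitl was called without DMSO replicate 1.

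Replicate numbers gave no sign of pairing the libraries: deviations of same-numbered libraries correlated at -0.11, -0.16 and -0.015. Deviations from group means of 3 libraries cannot show that pairing was absent. With the replicate block, 21 of the p53 targets were higher and 1 was lower. A refit on genes at 1 CPM in all DMSO libraries, chosen after seeing the data, gave 18 higher and 1 lower, and 23 higher and 0 lower for other p53 targets.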
